A study of Mus musculus with 11 samples.

Results

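The conjugating enzymes of the liver were examined as 59 genes of 3 families among the 24063 genes in the deposited tables. They were chosen by symbol alone: 20 genes whose names begin with Ugt1a, Ugt2a, Ugt3a or Ugt2b, and 18 whose names begin with Sult and a digit. The other 21 were glutathione transferases of the alpha, mu, pi, theta, kappa, zeta and omega classes. Their names begin with Gst, a class letter and a digit. The rule used no measured value, though it was set with earlier results of these data known. Liver RNA was sequenced from 6 mice given A2M and 5 mice given PBS. Both groups carry the strain label Cd1 nu/nu, and per the methods of the study the animals were male athymic nude mice, 8 weeks old when human tumour cells (A549, PC-3 or an astrocytoma line) were implanted under the skin. A2M was the activated form of the human plasma protease inhibitor, injected repeatedly into the peritoneum, with PBS as the vehicle. The labels do not give the tumour line of each animal, the hour at which a liver was taken or a sequencing batch. Athymic mice lack T cells, so the livers describe a host with an incomplete immune system that also bore a human tumour.

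Conjugation is the step in which liver cells attach a polar group to bilirubin, steroids, bile acids, drugs and reactive by-products, so that these can leave in bile or urine. UDP-glucuronosyltransferases (UGT) sit in the endoplasmic reticulum and transfer glucuronic acid from UDP-glucuronic acid. Sulfotransferases (SULT) of the cytosol transfer a sulfonate group from PAPS, the activated form of sulfate. Glutathione transferases (GST) couple glutathione to electrophiles such as epoxides and lipid aldehydes. Several of these genes are known targets of the receptors Ahr, Nr1i2 (PXR) and Nr1i3 (CAR) and of the oxidative stress factor Nfe2l2 (NRF2), which bind short DNA elements near or upstream of the start site.

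The genes lie in clusters of near copies. The 8 Ugt1a genes share their last exons on chromosome 1 and differ in the first exon and its promoter, so that between 50.3 and 60.6% of the annotated exon bases of each are also exon bases of another. The 250 bases upstream of the RefSeq start site are therefore shown for 3 Ugt1a genes (build GRCm38.p6), Ugt1a1 and Ugt1a5, which had the highest fold changes of the locus, and Ugt1a9, which had the most reads. They lie on the plus strand at chr1:88211709-88211958, chr1:88165762-88166011 and chr1:88070529-88070778. The capitals mark a dioxin response element core in Ugt1a5 and, in Ugt1a9, a match to the loose D-box pattern TTANGTAA (N is any base).
Ugt1a1: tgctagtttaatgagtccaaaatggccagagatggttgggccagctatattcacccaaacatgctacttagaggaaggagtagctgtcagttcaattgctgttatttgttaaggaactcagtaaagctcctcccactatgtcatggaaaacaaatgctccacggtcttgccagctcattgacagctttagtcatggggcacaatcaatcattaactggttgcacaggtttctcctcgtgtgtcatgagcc
Ugt1a5: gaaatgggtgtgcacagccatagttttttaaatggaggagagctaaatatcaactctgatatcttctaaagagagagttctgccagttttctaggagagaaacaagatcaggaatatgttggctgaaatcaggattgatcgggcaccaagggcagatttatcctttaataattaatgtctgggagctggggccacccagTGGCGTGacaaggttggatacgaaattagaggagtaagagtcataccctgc
Ugt1a9: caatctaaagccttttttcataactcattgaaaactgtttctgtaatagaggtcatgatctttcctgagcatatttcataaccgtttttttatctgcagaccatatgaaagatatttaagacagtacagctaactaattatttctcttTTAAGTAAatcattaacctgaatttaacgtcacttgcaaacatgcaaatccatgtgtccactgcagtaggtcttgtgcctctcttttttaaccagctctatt

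The windows of 5 more genes are given from the SULT and GST families. Of these 5, only Gstt3 had an adjusted p under 0.05 in the edgeR test of the groups given below. Gstt3 and Gstt1 are neighbours on the minus strand of chromosome 10 (chr10:75781423-75781672, shown from 1 of the 2 windows listed for Gstt3, and chr10:75797732-75797981) and differed in fold change. Sult1d1 lies on the minus strand of chromosome 5 (chr5:87569007-87569256). Gsta1 (plus strand, chr9:78230419-78230668) and Gsta2 (minus strand, chr9:78347146-78347395) are close copies: 190 of 266 aligned positions of their windows were identical (71.4%), while no other pair among these 8 windows exceeded 54.4%. Capitals mark a dioxin response element core in Sult1d1 (read on the other strand), and in Gsta2 a TATA box (read on the other strand) and, at the 3′ end, a dioxin response element core.
Gstt3: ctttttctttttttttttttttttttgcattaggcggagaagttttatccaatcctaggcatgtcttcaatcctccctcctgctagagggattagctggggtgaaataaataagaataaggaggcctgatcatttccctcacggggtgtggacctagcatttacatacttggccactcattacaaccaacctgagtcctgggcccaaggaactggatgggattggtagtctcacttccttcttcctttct
Gstt1: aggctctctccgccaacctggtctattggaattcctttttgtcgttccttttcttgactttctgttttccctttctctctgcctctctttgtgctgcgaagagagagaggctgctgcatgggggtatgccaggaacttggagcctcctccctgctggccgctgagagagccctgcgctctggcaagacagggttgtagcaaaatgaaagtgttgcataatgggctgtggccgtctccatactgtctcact
Sult1d1: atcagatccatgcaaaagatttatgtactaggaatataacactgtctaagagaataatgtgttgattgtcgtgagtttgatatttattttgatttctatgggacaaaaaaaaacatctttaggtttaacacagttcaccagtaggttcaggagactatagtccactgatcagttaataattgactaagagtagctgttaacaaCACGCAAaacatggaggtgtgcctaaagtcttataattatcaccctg
Gsta1: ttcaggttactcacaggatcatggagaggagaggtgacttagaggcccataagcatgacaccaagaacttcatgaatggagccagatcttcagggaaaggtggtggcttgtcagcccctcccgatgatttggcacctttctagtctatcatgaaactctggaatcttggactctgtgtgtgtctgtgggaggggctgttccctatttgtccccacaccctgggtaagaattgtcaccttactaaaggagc
Gsta2: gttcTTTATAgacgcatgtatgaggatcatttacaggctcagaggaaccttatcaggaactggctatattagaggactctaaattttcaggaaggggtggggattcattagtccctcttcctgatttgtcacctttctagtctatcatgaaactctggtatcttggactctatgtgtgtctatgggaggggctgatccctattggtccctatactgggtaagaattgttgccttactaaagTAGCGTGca

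Of the 59 genes, 51 had an upstream window in the RefSeq table, which holds 32851 windows of 250 bases in all. On both strands together, the dioxin response element core TNGCGTG, the site of Ahr, was found in 3 of the 51 (Gsta2, Sult1d1 and Ugt1a5), or 5.88%, against 4.10% of all windows. The pattern TTANGTAA, a loose form of the D-box bound by Dbp, Tef, Hlf and Nfil3, was found in Sult1a1, Ugt1a9 and Ugt2b1. This was also 5.88%, against 2.06% of all windows. As N stands for any base, a match need not be a working D-box. The antioxidant response element core TGACNNNGC, the site of Nfe2l2, was found in Gsta3, Gstm5 and Gstm7, against 10.2% of all windows, the E-box CACGTG in 0 of the 51 against 6.02%, and TATAAA in 9 of the 51 against 12.4%. None of these motifs overlapped another in the windows shown. A gene was counted if any of its windows matched, while the share beside it is over single windows, so the shares are not in the same unit. These matches describe the letters in the windows and nothing beyond them.

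**Figure D1:**
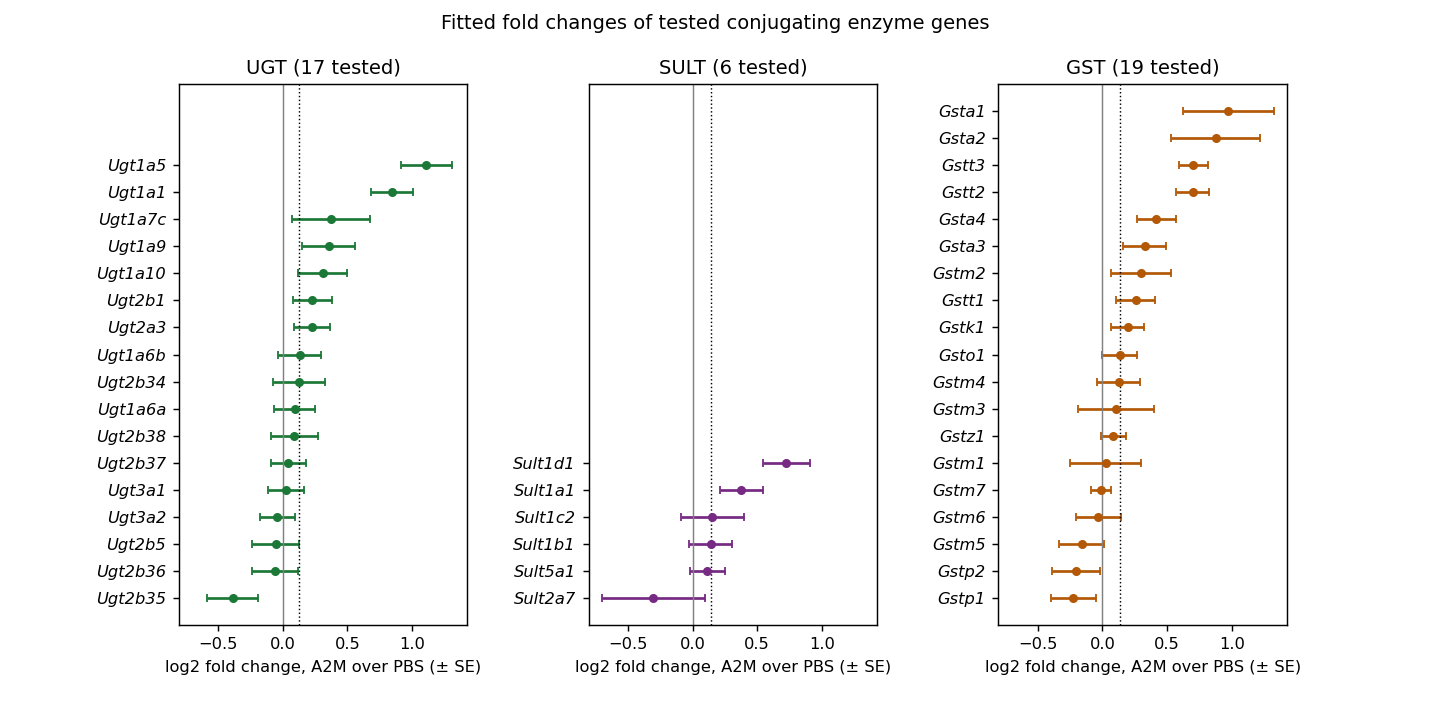
Fitted log2 fold change of A2M over PBS livers (x axis) with its standard error (bars) for the 17 UGT, 6 SULT and 19 GST genes that passed the low-count filter, sorted by value. The grey line marks 0 and the dotted line the median of each family (0.12 for UGT, 0.15 for SULT and 0.13 for GST), and most points lie close to it, with Ugt1a5 and Ugt1a1, Sult1d1, and Gsta1, Gsta2, Gstt3 and Gstt2 at the upper end.

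The liver profile of the samples was checked before the families were compared. Counted reads ran from 23545121 to 37357134 per A2M liver and from 31513210 to 46381692 per PBS liver. Summed hepatocyte markers lay between 102519 and 120822 RPM (read counts scaled to an equal total in every library) in A2M livers and between 80843 and 130033 RPM in PBS livers, with 1 of the 10 markers, Ass1, listed at 0 in every library. Some libraries stood apart in markers of other cells. PBS replicate 2 had 823.9 RPM of 8 adrenal cortex genes and 827.3 RPM of 8 adipocyte genes, where the other 10 libraries had at most 24.6 and 19.1 RPM. PBS replicate 1 had 275.7 RPM of 8 cholangiocyte genes (others at most 94.0), and A2M replicate 1 had 328.4 RPM of the 7 macrophage genes found (others at most 173.3). In bulk tissue, fewer cells of a type and less RNA per cell cannot be told apart.

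In the comparison of A2M with PBS livers 4 conjugating enzyme genes, Gstt3, Gstt2, Ugt1a5 and Ugt1a1, were higher in A2M livers by the quasi-likelihood test of edgeR at an adjusted p under 0.05, and none passed 0.01 in it. With edgeR's quasi-likelihood test and Benjamini-Hochberg adjustment over all 12581 genes tested, 0 of the 42 genes that passed the low-count filter had an adjusted p under 0.01, against 27 of all genes (0.215%). At an adjusted p under 0.05 there were 4 of 42, all higher in A2M, against 154 of all genes (1.22%), of which 70 were higher (0.556%). At an unadjusted p under 0.05 there were 9 of 42, again all higher in A2M, against 14.7% of all genes in either direction and 6.38% in that direction. DESeq2 at an adjusted p under 0.01 gave 5 of the 41 genes it adjusted (the same 4 with Sult1d1, all higher in A2M), against 284 of 12368 (2.3%, with 1.12% higher). Requiring both the edgeR exact test and DESeq2, much as the study did, gave 4 of 41, the same 4 genes, against 188 of 12334 (1.52%, with 0.673% higher).

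The 3 families had like medians. The median log2 fold change was 0.12 over 17 UGT genes, 0.15 over 6 SULT genes and 0.13 over 19 GST genes, beside -0.0058 over all 12581 genes tested. A positive fold change was found for 13 UGT, 5 SULT and 14 GST genes, 32 of 42 together, where 48.9% of all genes had one. Most of these values were small: 25 of the 42 lay within 0.25 of 0 on the log2 scale, as did 8482 of all 12581. The middle 50% of UGT genes ran from 0.03 to 0.31, of SULT genes from 0.12 to 0.32 and of GST genes from 0.01 to 0.37. After TMM scaling, values for A2M and PBS livers did not overlap for 4 of the 42 genes, all higher in A2M (Gstt2, Gstt3, Sult1d1 and Ugt1a5), against 2.58% of all genes in either direction and 1.01% in that direction. Since the genes of a cluster share sequence, they are not independent replicates of the treatment, and no test was made over them.

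**Figure D2:**
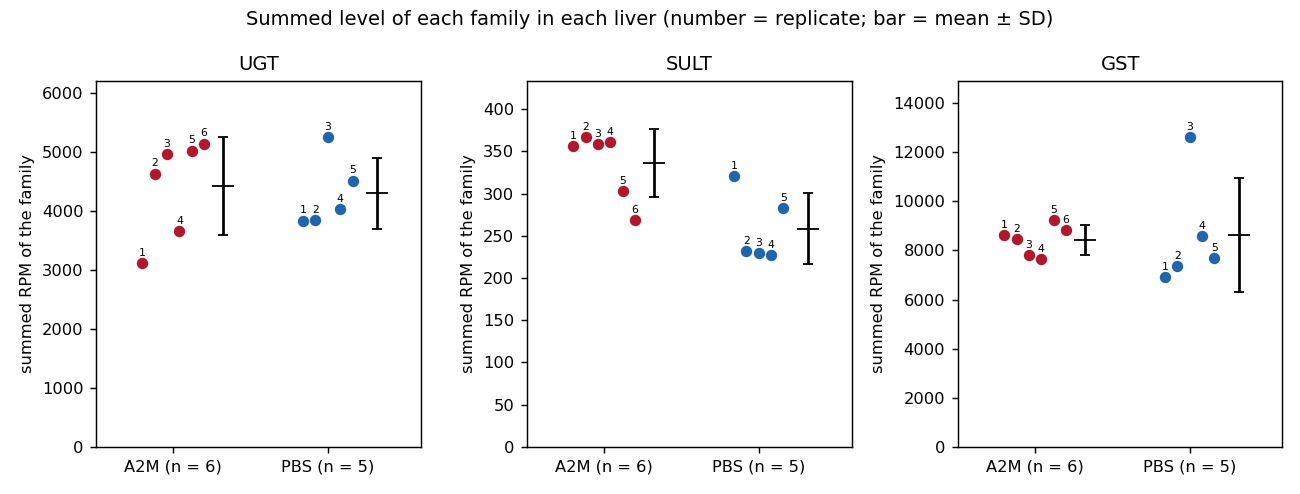
Summed RPM of the UGT, SULT and GST genes (y axes, each from 0) in each liver, A2M on the left and PBS on the right, with points numbered by replicate and bars for mean ± SD. The groups overlap in every panel, and PBS replicate 3 stands above the other livers in the GST panel at 12625 RPM.

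Together the 59 genes took up 13193 ± 1147 RPM in A2M livers and 13184 ± 2846 RPM in PBS livers (SD, n = 6 and 5), most of it from GST. GST genes summed to 8438 ± 611 RPM in A2M livers and 8631 ± 2316 RPM in PBS livers. UGT genes summed to 4420 ± 837 RPM in A2M livers and 4294 ± 602 RPM in PBS livers. Neither of these sums differed by more than the spread between livers. SULT genes summed to 336 ± 40.3 RPM in A2M livers and 258 ± 41.9 RPM in PBS livers, a log2 ratio of 0.38. The SULT sums of the livers overlapped, with 268.8 to 367.3 RPM in A2M and 226.9 to 320.8 RPM in PBS. The GST sum of PBS replicate 3 was 12625 RPM, above each of the 6 A2M livers (7651 to 9237 RPM) and of the other PBS livers (6904 to 8589 RPM), and without it the log2 ratio of the GST means was 0.14 in place of -0.03.

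Among the UGT genes the highest levels belonged to the Ugt2b group, which glucuronidates steroids and bile acids. Per kilobase, Ugt2b5 was at 479 ± 102 RPKM (the same scale per kilobase of exon) in A2M livers and 499 ± 96.9 RPKM in PBS livers. Ugt2b36 was at 413 ± 83.8 and 432 ± 79.2 RPKM, and Ugt2b1 at 374 ± 61.2 and 322 ± 48.4 RPKM, in A2M and in PBS livers. The Ugt2b5, Ugt2b36 and Ugt2b1 genes held 20.4, 17.6 and 21.7% of the UGT reads in A2M livers, and 21.9, 18.9 and 19.1% in PBS livers. Their fold changes were -0.05 for Ugt2b5, -0.06 for Ugt2b36 and 0.23 for Ugt2b1 on the log2 scale, each with an adjusted p of at least 0.528 in edgeR. The Ugt2b5 and Ugt2b36 values turned positive when PBS replicate 3, A2M replicate 1 or A2M replicate 4 was left out. Ugt3a2, of a group that uses other sugars than glucuronic acid in humans, was at 127.5 ± 22.6 RPKM in A2M livers and 132.5 ± 14.4 RPKM in PBS livers. The remaining tested genes outside the Ugt1a locus, Ugt2a3, Ugt2b34, Ugt2b37, Ugt2b38 and Ugt3a1, had log2 fold changes between 0.03 and 0.22, and the olfactory genes Ugt2a1 and Ugt2a2 had 7 and 0 reads over the A2M livers and 6 and 0 over the PBS livers.

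Ugt2b35 had the lowest fold change of all 42 genes. Its level had a lowest, median and highest value of 43.8, 66.3 and 91.7 RPKM in A2M livers, against 94.1, 73.6, 112.99, 67.6 and 79.7 RPKM in PBS livers. The groups overlapped, with 3 of 6 A2M livers below the lowest PBS liver. The log2 fold change was -0.39 (SE 0.19), which did not pass the test (adjusted p = 0.385, edgeR).

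Ugt1a1, which conjugates bilirubin, was higher in A2M livers in 5 of 6 animals. Its lowest, median and highest levels were 13.7, 26.8 and 27.5 RPKM in A2M livers, against 14.7, 13.9, 11.5, 12.4 and 15.3 RPKM in PBS livers. A2M replicate 1 lay within the range of the PBS livers and the other 5 A2M livers, at 22.1 RPKM or more, lay above it. Its log2 fold change was 0.84 (SE 0.16, adjusted p = 0.0279, edgeR). Without A2M replicate 1, the library with the highest macrophage markers, it was 0.96 with an adjusted p of 0.000918 in edgeR, the only leave-one-out fit in which any of the 42 genes passed 0.01. The adjusted p was above 0.05 in 8 of the 11 leave-one-out fits, each without 1 of PBS replicates 1 to 4 or A2M replicates 2 to 5, with a highest value of 0.0778. The part of the macrophage markers in this result was not tested.

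Ugt1a5 had the highest fold change of the 42 genes from a low level. It was at 1.26, 1.83 and 2.28 RPKM (lowest, median and highest) in A2M livers, against 1.01, 0.793, 0.603, 1.07 and 0.787 RPKM in PBS livers. The groups did not overlap, and the closest pair was A2M replicate 1 and PBS replicate 4. On the log2 scale the difference was 1.11 (SE 0.20, adjusted p = 0.0218, edgeR), and the adjusted p stayed under 0.05 in 7 of 11 leave-one-out fits. It reached 0.0620, 0.0515, 0.0555 and 0.0505 without PBS replicate 2 and without A2M replicates 2, 3 and 5.

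Other Ugt1a genes moved less. Ugt1a9, the gene of the locus with the most reads, which conjugates phenols, had a log2 fold change of 0.35 (SE 0.21, adjusted p = 0.465, edgeR). The phenol-conjugating Ugt1a6a and Ugt1a6b had log2 fold changes of 0.09 and 0.13, and Ugt1a10 and Ugt1a7c of 0.31 and 0.37. When all 8 Ugt1a rows were summed into 1 before the test, the locus had a log2 fold change of 0.41 (SE 0.17, adjusted p = 0.286, edgeR). The way in which reads from the shared exons were assigned is not given in the sources used here. Ugt1a2, with 47 reads over the A2M livers and 30 over the PBS livers, and Ugt1a7c, with at most 0.116 RPKM in any liver, were near 0, so reads of the shared exons were not credited in full to every gene. The exon lengths behind the RPKM of Ugt1a genes include the shared exons (3208 bases in all for Ugt1a5). Their RPKM levels may therefore be too low beside other genes, and the summed row may hold only part of the reads of the locus.

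Ugt1a1 and Ugt1a5 also held a larger part of the reads of their own locus in A2M livers. Of the reads counted for the 7 tested Ugt1a genes, Ugt1a1 held 25.1% ± 3.69 in A2M livers and 18.7% ± 2.30 in PBS livers. The share of Ugt1a5 was 1.92% ± 0.307 in A2M livers and 1.20% ± 0.429 in PBS livers. Ugt1a6a held 10.4% ± 0.725 in A2M livers and 13.0% ± 1.14 in PBS livers, and Ugt1a6b 10.5% ± 0.796 and 12.8% ± 1.21. The A2M and PBS shares of Ugt1a6a did not overlap, and PBS replicate 4 was the only PBS liver whose shares of Ugt1a1 and Ugt1a5 reached into the A2M range. Within-cluster shares were compared for 31 genes as the log2 ratio of a gene's reads to those of the other tested genes of its cluster. This measure was chosen after the values were seen. An exact two-sided permutation test of the mean log2 ratio ran through the 462 splits of the livers, for which the smallest possible p is 0.0022. The exact p was 0.0130 for Ugt1a1 and for Ugt1a5, 0.0022 for Ugt1a6a and 0.0065 for Ugt1a6b. After adjustment over the 31 comparisons each was 0.0503, which does not pass 0.05. The same adjusted value was found outside the Ugt1a locus, so such shifts were not particular to it. The exact p was 0.0043 for Ugt2b1, 0.0087 for Ugt2b35, and 0.0130 for Ugt2a3 and for Gstt3. The share in A2M livers was lower for Ugt2b35 and higher for Ugt2b1, Ugt2a3 and Gstt3. Shares of a cluster add up to the whole, so the values within a cluster are not independent.

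**Figure D3:**
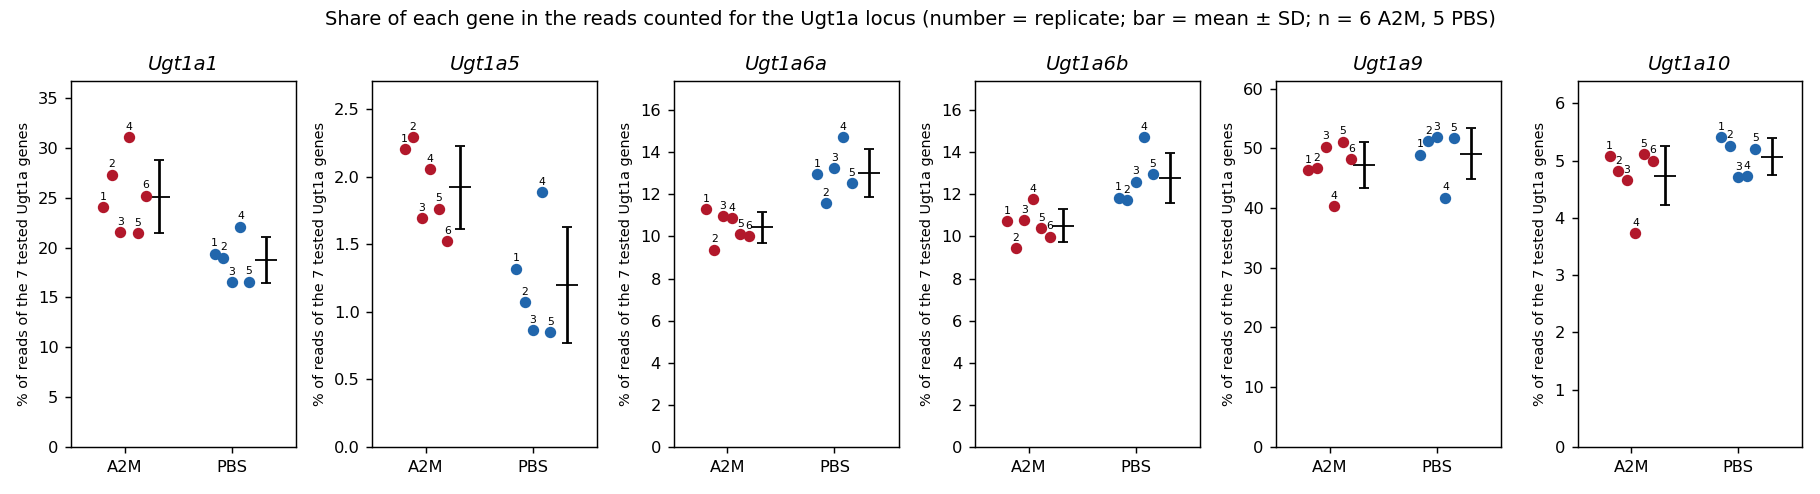
Share of each gene in the reads counted for the 7 tested Ugt1a genes (y axes, percent, each from 0) per liver, A2M left and PBS right, for the 6 genes that held nearly all of them, with points numbered by replicate and bars for mean ± SD. Ugt1a1 and Ugt1a5 sit higher in most A2M livers and Ugt1a6a and Ugt1a6b lower, while Ugt1a9 overlaps between groups (47.2% in A2M and 49.1% in PBS livers).

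The SULT family was low and had few active members in these livers. Of its 18 genes, 12 did not pass the low-count filter, 3 of them (Sult2a3, Sult2a5 and Sult3a1) with no read in any library. The oestrogen sulfotransferase Sult1e1 had 54 reads over the A2M livers and 47 over the PBS livers. Hydroxysteroid sulfotransferases of the Sult2a group, which act on steroids and bile acids and are low in male mouse liver, had at most 2 reads in any library apart from Sult2a7. Sult1c1, Sult2b1, Sult4a1 and Sult6b1 had at most 6 reads each over the A2M livers and 10 over the PBS livers. Sult2a7 itself was at 1.09 ± 0.571 RPKM in A2M livers and 1.35 ± 0.712 RPKM in PBS livers, with the highest coefficient of variation of the 42 genes within A2M livers (52.6%).

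Sult1a1, the main phenol sulfotransferase of liver, held 58.7% of the SULT reads in A2M livers and 59.4% in PBS livers. It was at 97.4, 156.6 and 171.5 RPKM (lowest, median and highest) in A2M livers, against 162.5, 98.1, 96.7, 89.3 and 120.1 RPKM in PBS livers. The groups overlapped: PBS replicate 1 was level with the higher A2M livers and A2M replicate 6 with the lower PBS livers. Sult1a1 had a log2 fold change of 0.38 (SE 0.17, adjusted p = 0.324, edgeR).

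Sult1d1, which sulfonates dopamine and related amines, was the SULT gene with the highest fold change. It was at 26.0, 31.8 and 39.3 RPKM (lowest, median and highest) in A2M livers, against 15.003, 13.5, 21.5, 21.7 and 25.3 RPKM in PBS livers. The groups did not overlap, but A2M replicate 1 and PBS replicate 5 were close. Its log2 fold change was 0.72 (SE 0.18), with an adjusted p of 0.0783 in edgeR, which does not pass either cutoff, and an adjusted p of 0.00927 in DESeq2. Sult1d1 neighbours Sult1b1, a thyroid hormone and phenol sulfotransferase, for which the log2 fold change was 0.14 (SE 0.16).

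The remaining tested SULT genes differed by less than their error. Sult5a1 was at 27.5 ± 5.0 RPKM in A2M livers and 25.9 ± 4.82 RPKM in PBS livers. Sult1c2 was at 1.90 ± 0.660 RPKM in A2M livers and 1.73 ± 0.196 RPKM in PBS livers, with 3 A2M livers above and 2 below all PBS livers.

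The GST family was led by pi and mu class genes. Gstp1, the most abundant of the 59 genes, had a lowest, median and highest level of 2891, 3481 and 4077 RPKM in A2M livers, against 3395, 3558, 5974, 3683 and 3675 RPKM in PBS livers. PBS replicate 3 was far above every other liver and the groups otherwise overlapped. The log2 fold change of -0.22 (SE 0.17, adjusted p = 0.605, edgeR) became -0.02 without PBS replicate 3, and that of its near copy Gstp2 (-0.21) became 0.01. Gstm1, a mu class enzyme, was at 1298 ± 279 RPKM in A2M livers and 1269 ± 579 RPKM in PBS livers. Gsta3, an alpha class enzyme known in mice for conjugating the epoxide of aflatoxin, was at 779.5 ± 160 RPKM in A2M livers and 625.3 ± 111.7 RPKM in PBS livers, with a log2 fold change of 0.33 (SE 0.17, adjusted p = 0.391, edgeR).

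Theta class genes gave the smallest p of the family. Gstt3 was at 22.4, 24.3 and 29.4 RPKM (lowest, median and highest) in A2M livers, against 15.9, 14.1, 15.6, 17.2 and 15.1 RPKM in PBS livers. The groups were well apart. Gstt3 had a log2 fold change of 0.70 (SE 0.11, adjusted p = 0.0124, edgeR), and the adjusted p was under 0.05 in all 11 leave-one-out fits, between 0.0127 and 0.0437. With library totals in place of TMM factors it was 0.00625, the only quasi-likelihood setting with all libraries in which any of the 42 genes passed 0.01. The exons of Gstt3 overlap those of the predicted gene Gm20441 on the same strand over 13.6% of their length.

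Gstt2, which was outside the rule for named genes and was chosen after its values were seen, showed the same separation. It was at 38.7, 43.0 and 55.0 RPKM (lowest, median and highest) in A2M livers, against 29.3, 29.1, 27.6, 31.4 and 22.2 RPKM in PBS livers. The groups did not overlap. The log2 fold change was 0.70 (SE 0.13, adjusted p = 0.0229, edgeR), with an adjusted p of 0.0609, 0.0695, 0.0515 and 0.0514 without PBS replicates 1 and 2 and A2M replicates 2 and 5. Gstt1, which lies between them on chromosome 10 and had the highest level of the class, had a log2 fold change of 0.26 (SE 0.15, adjusted p = 0.478, edgeR). Of the reads of these 3 genes, Gstt1 held 65.0% ± 3.005 in A2M livers and 71.3% ± 3.46 in PBS livers. For the log2 ratio of its reads to those of the others, the exact permutation p was 0.0152 (adjusted 0.0522).

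**Figure D4:**
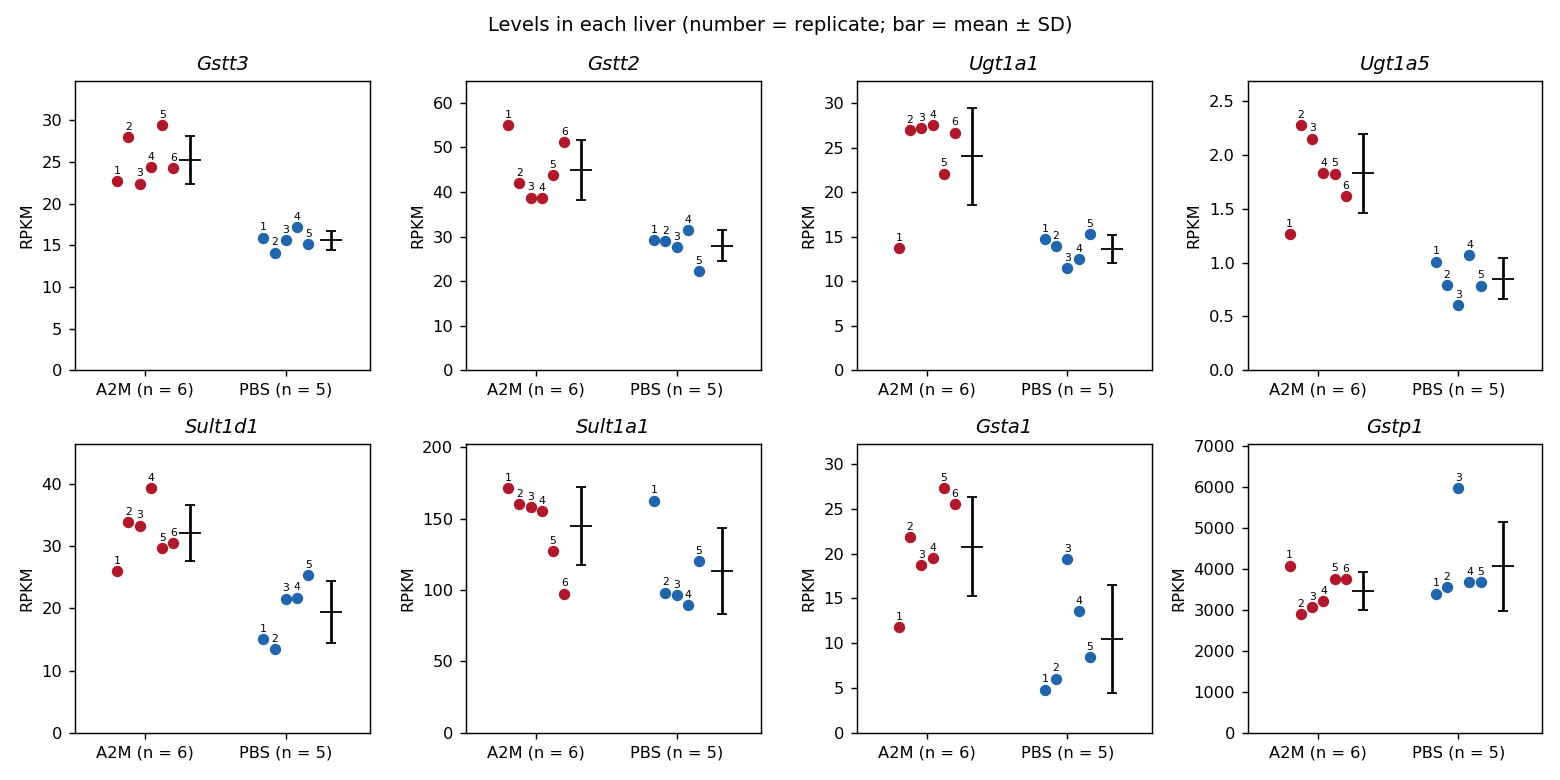
RPKM of 8 named genes in each liver (y axes, each from 0), A2M left and PBS right, with points numbered by replicate and bars for mean ± SD. Gstt3, Gstt2, Ugt1a5 and Sult1d1 do not overlap between groups, A2M replicate 1 is the A2M liver that overlaps PBS for Ugt1a1, and PBS replicate 3 stands above the rest for Gstp1.

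The alpha class genes Gsta1 and Gsta2 had large fold changes with a wide spread. Gsta1 was at 11.8, 20.7 and 27.3 RPKM (lowest, median and highest) in A2M livers, against 4.83, 6.06, 19.3, 13.6 and 8.47 RPKM in PBS livers. The groups overlapped, with 4 of 6 A2M livers above the highest PBS liver on the RPKM scale (3 of 6 after TMM scaling) and A2M replicate 1 below PBS replicates 3 and 4. The log2 fold change was 0.97 (SE 0.35, adjusted p = 0.211, edgeR) for Gsta1 and 0.88 (SE 0.35, adjusted p = 0.257, edgeR) for Gsta2. Both follow the same order in PBS livers, and 89.7% of the stretches of 50 bases of the Gsta1 transcripts, the length used as a stand-in for a read, also occur in another gene, so the 2 counts are uncertain. Summed into 1 row they had a log2 fold change of 0.91 (SE 0.35, adjusted p = 0.237, edgeR). Gm3776, the gene that held the most of these stretches of Gsta1, was not part of the sum, so the sum leaves this uncertainty in place. Gsta4, which conjugates the lipid aldehyde 4-hydroxynonenal, was at 80.1 ± 6.01 RPKM in A2M livers and 60.1 ± 13.3 RPKM in PBS livers, with a log2 fold change of 0.42 (SE 0.15, adjusted p = 0.217, edgeR).

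None of the other GST genes had an unadjusted p under 0.05 in edgeR. Gstm5, the lowest of the tested mu class genes, had a log2 fold change of -0.16 (SE 0.17), and the fold changes of the remaining mu class genes ran from -0.03 to 0.30. Gstz1, an enzyme of tyrosine breakdown, had a log2 fold change of 0.08 (SE 0.10), the omega class Gsto1 0.13 and the mitochondrial and peroxisomal Gstk1 0.19. Gsto2 and Gstt4 did not pass the low-count filter, with 38 and 1 reads over the A2M livers and 61 and 1 over the PBS livers.

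Livers of the same group did not rank alike in the 3 families. A2M replicate 1 was the lowest of the 11 livers for 9 of 17 UGT genes but for 1 of 6 SULT and 1 of 19 GST genes. PBS replicate 3 was the highest for 5 of the 7 Ugt2b genes and for 7 of 19 GST genes. PBS replicate 1 was the lowest for 10 of 19 GST genes. The median coefficient of variation of a gene was 21.4% in A2M livers and 18.0% in PBS livers for UGT, 18.6 and 23.4% for SULT, and 16.4 and 20.9% for GST.

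**Figure D5:**
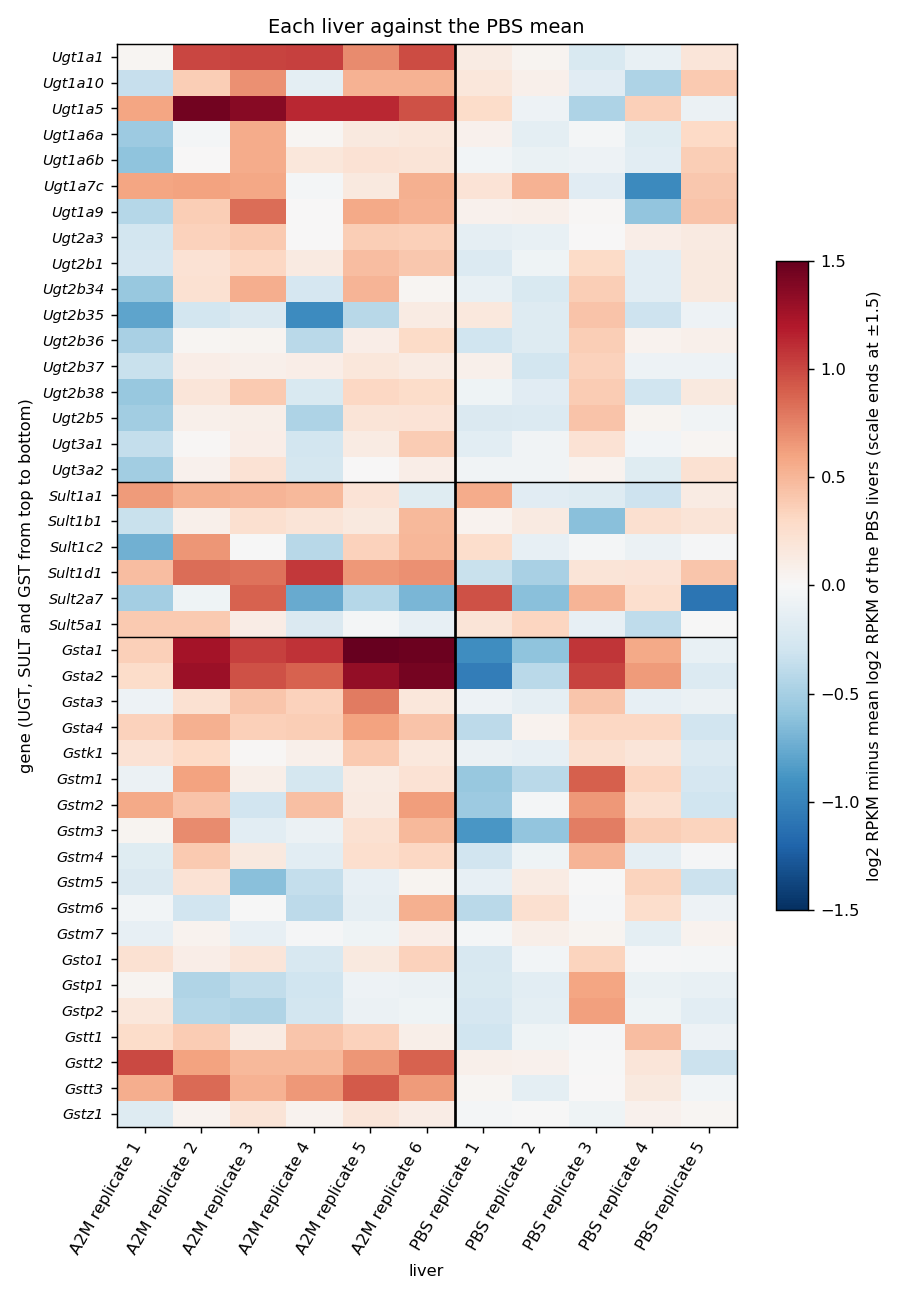
Log2 RPKM of the 42 tested genes (rows; UGT, SULT and GST from top to bottom) in each liver (columns; 6 A2M, then 5 PBS) minus the mean log2 RPKM of the PBS livers, on a colour scale that ends at ±1.5. Ugt1a1, Ugt1a5, Sult1d1, Gsta1, Gsta2, Gstt2 and Gstt3 are warm across most A2M livers, A2M replicate 1 is pale or blue for most UGT genes, and PBS replicate 3 is warm for Gstp, Gstm and Ugt2b genes.

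Genes around the 3 families were read from 10 lists, which hold 87 genes tested. With edgeR's quasi-likelihood test 0 of the 87 had an adjusted p under 0.01, beside 0.215% of all genes. There were 6 with one under 0.05 (1.22% of all genes) and 27 with an unadjusted p under 0.05 (14.7% of all genes). DESeq2 gave 10 at an adjusted p under 0.01 (2.3% of all genes). A single list, the 10 genes of the clock and its output, supplied 5 of the 6, 8 of the 27 and 7 of the 10. The pooled counts therefore do not describe the other lists. Of 4 genes that make and move UDP-glucuronic acid, none had an unadjusted p under 0.05 (median log2 fold change 0.00014). Of 6 PAPS genes, 2 had one, beside 14.7% of all genes: Papss2, which makes PAPS, with a log2 fold change of 0.50 (SE 0.16, adjusted p = 0.155, edgeR) and Bpnt1, which degrades its product, with 0.27. Of 11 genes of glutathione supply, 5 had one (14.7% of all genes), 3 of them higher in A2M livers (6.38% of all genes) and the rest lower. Only 4 of the 11 had a positive fold change, beside 48.9% of all genes, and their median log2 fold change was -0.05. Ahcy, which breaks down S-adenosylhomocysteine, was at 669 ± 72.6 RPKM in A2M livers and 500.1 ± 57.6 RPKM in PBS livers (log2 fold change 0.43, SE 0.13, adjusted p = 0.131, edgeR). Mat1a, which makes S-adenosylmethionine, was at 718 ± 82.3 RPKM in A2M livers and 521 ± 121 RPKM in PBS livers (log2 fold change 0.47, SE 0.15, adjusted p = 0.155, edgeR). Neither gene passed the test. The groups did not overlap for either gene in RPKM, nor for Mat1a after TMM scaling, while those of Ahcy then did.

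Among 6 genes that remove or process conjugates, all had a positive fold change, beside 48.9% of all genes. Only 1 of them, the lysosomal arylsulfatase Arsa, had an adjusted p under 0.05. Arsa was at 11.5 ± 2.39 RPKM in A2M livers and 7.17 ± 0.709 RPKM in PBS livers (log2 fold change 0.70, SE 0.13, adjusted p = 0.0274, edgeR). Of 8 exporters and carriers of conjugates, 7 were positive in fold change (48.9% of all genes). Their median was 0.38, with values of 0.41 for Abcc3, which exports glucuronides to blood, and 1.07 for Slco1a4, a carrier of organic anions. Neither passed the test (adjusted p of 0.244 and 0.251, edgeR). Of 15 other conjugating enzymes, 11 had a positive fold change (48.9% of all genes), with a median log2 fold change of 0.06. The methyltransferases Inmt and Nnmt had log2 fold changes of 0.97 and 1.26 with standard errors of 0.31 and 0.54. Neither passed the test (adjusted p of 0.152 and 0.300, edgeR). Microsomal and other glutathione transferases (9 tested) had a median of -0.05, and 2 other UDP-glycosyltransferases had one of 0.25.

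The receptors and factors that are known to control these genes were read beside them. Of 16 tested, 12 had a positive fold change (48.9% of all genes), with a median log2 fold change of 0.16. At an unadjusted p under 0.05 in edgeR there were 4 (14.7% of all genes), 3 of them higher in A2M livers (6.38% of all genes). DESeq2 gave 2 at an adjusted p under 0.01 (2.3% of all genes). Ahr was at 2.85 ± 0.816 RPKM in A2M livers and 4.40 ± 0.131 RPKM in PBS livers, and the groups did not overlap (log2 fold change -0.62, SE 0.16, adjusted p = 0.0820, edgeR). Nr1i2, Nr1i3 and Nfe2l2 had log2 fold changes of -0.04, -0.29 and -0.04. Maff, a small Maf protein that pairs with Nfe2l2, was at 2.90 ± 1.13 RPKM in A2M livers and 1.17 ± 0.711 RPKM in PBS livers (log2 fold change 1.35, SE 0.35, adjusted p = 0.0820, edgeR). Of 10 genes of the clock and its output, 7 did not overlap between groups after TMM scaling, beside 2.58% of all genes. In edgeR 5 had an adjusted p under 0.05, beside 1.22% of all genes. The study had already reported Arntl, Dbp, Tef, Per2, Per3 and Ciart as changed in these livers. These counts are therefore not independent evidence. The smallest p belonged to the clock activator Arntl and the D-box repressor Nfil3, with log2 fold changes of -3.18 (SE 0.50, adjusted p = 0.0108, edgeR) and -1.76 (SE 0.29, adjusted p = 0.0153, edgeR). Tef, which binds the D-box, was at 36.3 ± 7.50 RPKM in A2M livers and 10.8 ± 5.59 RPKM in PBS livers, and Dbp, which binds the same element, at 30.4 ± 7.26 RPKM in A2M livers and 3.04 ± 3.35 RPKM in PBS livers. The genes with a match to the loose D-box pattern, Sult1a1, Ugt1a9 and Ugt2b1, had log2 fold changes of 0.38, 0.35 and 0.23. Their adjusted p-values in edgeR were 0.324, 0.465 and 0.528. The part of the clock and D-box factors in the levels of the conjugating enzymes was not tested.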

How the data were processed

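Liver RNA of 6 A2M and 5 PBS mice was measured by RNA-seq. Per the methods and the submitters' processing notes, the authors made unstranded TruSeq libraries, extracted single reads with bcl2fastq 1.8.4, mapped them to mm10 with TopHat2 and counted them with featureCounts on RefSeq genes. Raw counts per gene were deposited by the authors without normalization. They also deposited RPM, the counts scaled to an equal library total, and RPKM, for which the authors divided by the exon length from featureCounts. Without strand, reads of genes that overlap on opposite strands cannot be told apart, as for Gstz1, Gstm5, Sult1a1 and the Ugt1a genes. In GENCODE, the predicted gene Gm20528 overlaps 922 of the 2224 exon bases of Ugt1a1 on the other strand. For Ugt1a5 it overlaps 394 of 2203.

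Counts were tested with edgeR 4.0.16 in R 4.3.3 (TMM, filterByExpr by group, quasi-likelihood F-test), with Benjamini-Hochberg adjustment over 12581 genes and a threshold of 0.01, the value the study required of 2 packages. Fold changes are A2M over PBS and levels are RPKM, as mean ± SD. Replicate numbers only name livers, and p-values measure the spread between them. Named genes were those past the threshold, the 4 with the highest mean RPKM and the 3 highest and 3 lowest fold changes at a mean CPM of at least 1 in each family, Ugt1a1, Sult1d1, Gstp1 and Gsta4, and in each list those past the threshold or else the 2 with the smallest p, with Nr1i2, Nr1i3, Ahr and Nfe2l2. Other members are given beside the named genes of their cluster, and Tef and Dbp were named after their values were seen. Members and lists were chosen with earlier results of these data known. Gene positions are from GENCODE and upstream windows from RefSeq (GRCm38.p6). Scripts were tested on simulated data. Alternatives were RLE size factors, library totals, no count filter, robust dispersion, DESeq2 1.42.0, an edgeR exact test with DESeq2, copies summed, an adjusted p under 0.05 and leaving out each library. A fit without 2 libraries, PBS replicate 2 and A2M replicate 1, was added once the data had been seen.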

Additional observations from a re-analysis of the deposited data

Results flagged for a closer look

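In 54 sets of livers (the 24 named conjugating enzyme genes and the 3 family sums, each in A2M and in PBS), the highest or lowest liver was compared with its nearest neighbour by the ratio of that gap to the whole range, and 6 stood apart by Dixon's criterion at 95%, where chance gives about 1 in 20. Of these 6, 4 were values of PBS replicate 3. Its Gsta3 level of 825 RPKM was followed by 587 RPKM in the next PBS liver (gap ratio 0.913), its Gstp1 level of 5974 RPKM by 3683 RPKM (0.888) and its Gstp2 level of 3271 RPKM by 2047 RPKM (0.831). Gstp1 and Gstp2 share sequence and are not independent values. Its Sult1b1 level of 5.46 RPKM was the lowest, below 8.71 RPKM (0.720). Sult1c2 was highest in PBS replicate 1 at 2.07 RPKM, followed by 1.70 RPKM (0.745). Sult2a7 was highest in A2M replicate 3 at 2.21 RPKM, followed by 1.14 RPKM (0.713).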

How the results depend on the processing

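The edgeR quasi-likelihood test gave 27 of all genes and 0 of the 42 conjugating enzyme genes at an adjusted p under 0.01. Library totals gave 1 such gene, of the GST family (Gstt3). DESeq2 gave 284 of all genes and 5 of the conjugating enzymes (2 UGT, 1 SULT and 2 GST), and the edgeR exact test with DESeq2 gave 188 and 4 (2 UGT and 2 GST). An adjusted p under 0.05 gave 154 and 4 (2 UGT and 2 GST). A fit without 2 libraries, PBS replicate 2 and A2M replicate 1, gave 10 and 1 (1 UGT, Ugt1a1 at 0.94, adjusted p = 0.00368, edgeR). Leaving out 1 library gave between 6 and 35 of all genes, between 0 and 1 conjugating enzymes and UGT genes, and 0 SULT and 0 GST genes. The cause of these differences was not tested. DESeq2 adjusted p-values were 6.22e-05 for Gstt2, 4.90e-06 for Gstt3, 0.00927 for Sult1d1, 0.000110 for Ugt1a1 and 1.41e-05 for Ugt1a5. Signs turned for 5 genes near 0. Leaving out 1 library, the log2 fold change ran from -0.12 to 0.33 for Gstm1 (negative without PBS replicates 1, 2 or 5 or A2M replicate 2), from -0.28 to 0.0069 for Gstp2 (positive without PBS replicate 3), from -0.14 to 0.060 for Ugt2b36 and from -0.14 to 0.087 for Ugt2b5 (positive without PBS replicate 3 or A2M replicates 1 or 4), and from -0.090 to 0.036 for Ugt3a2 (positive without PBS replicate 5 or A2M replicate 1). Gstm1 was at -0.059 without the pair of libraries. Of the single-gene values under the alternatives, 401 kept direction and side of the threshold, 8 passed it and 14 turned. No paired analysis was possible because the labels carry no numbers that link A2M with PBS livers, and the replicate numbers used here follow the order of deposit.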
